A study of Mus musculus with 24 samples.

Results

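Oxidative phosphorylation genes of the nuclear genome were followed in RNA from the mouse nucleus accumbens. The genes were taken by name: the families Ndufa, Ndufb, Ndufc, Ndufs, Ndufv, Uqcr, Atp5 and Cox4 to Cox8, with Sdha, Sdhb, Sdhc, Sdhd and Cyc1, and without the assembly factors called Ndufaf and symbols ending in -ps. Of 91 genes found this way, 88 had at least 10 counts in 6 or more libraries, out of 55401 gene IDs in the table. They were 40 genes of complex I, 4 of complex II, 9 of complex III, 17 of complex IV and 18 of complex V, and all 88 also passed the filter of the test. The other 3, Ndufb4c (73 counts over all libraries), Cox8b (130) and Cox8c (4), were under the minimum. Of the 88, Cox7a1 came closest to the minimum, with 7 to 33 counts per library and at least 10 in 23 libraries. Of those left out, Cox8b had at least 10 counts in 1 library. By annotation 85 of the 88 were protein coding, and Ndufa11b, Ndufs6b and Cox6c2 were processed pseudogenes. The names also took in Atp5s (coupling factor B), Ndufa4l2 and Cox7a2l, which are not core subunits of the complexes.

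The mice, C57BL/6J or DBA/2J of 8 to 9 weeks with the strain of each library not stated, had either spared nerve injury (SNI, the tibial variant) on the left, which models long-lasting pain from nerve damage, or a sham operation that left the nerve alone. All had an AAV8 vector in the accumbens of both hemispheres, with the neuronal hSyn promoter driving Egfp alone (Gfp) or Mef2c with Egfp (Mef2c). The 24 libraries in 4 groups of 6 are called Sham Gfp and SNI Gfp, Sham Mef2c and SNI Mef2c, and every group, controls included, carried a vector. The RNA came from whole punches of both sides, so cells that did not take up the vector and cells other than neurons are in every library. In such bulk tissue fewer cells of a type and less RNA per cell cannot be told apart. The labels do not tie libraries to mice, and each p-value is relative to the spread among these libraries, which may be technical.

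Oxidative phosphorylation is the chain of mitochondrial enzymes that makes most of the ATP of a neuron. Complexes I and II pass electrons from NADH and succinate to ubiquinone, complex III passes them on to cytochrome c, complex IV passes them to oxygen, and complex V, the ATP synthase, uses the proton gradient so formed. Most subunits are encoded in the nucleus and a few core ones in the mitochondrial genome, and the factors NRF1, GABP, YY1 and the estrogen-related receptors are known to bind promoters of many nuclear subunit genes.

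Total counts per library lay between 25477019 and 36570108. All 12 markers of striatal projection neurons, the main cell type of the accumbens, were detected, with summed levels of 2630 to 7428 CPM, the counts scaled to library size and TMM factor. Mef2c, the gene on the vector, stood 3.64-fold above SNI Gfp in SNI Mef2c (exact permutation test, two-sided p = 0.00216, the smallest that 924 assignments allow), whereas Sham Mef2c did not separate from Sham Gfp (1.30-fold, exact p = 0.264). In the 6 libraries labelled Sham Mef2c it was at 469, 125, 248, 210, 123 and 285 CPM, against 139 to 212 in Sham Gfp, so libraries 2 and 5 show no rise of the vector gene and lie below every Sham Gfp library. Group names below are the labels. For the nuclear subunit genes, edgeR calls and medians over all 88 genes that use Sham Mef2c are also given without these 2 libraries. Of medians by complex, motif or transcript length, only that of complex IV in SNI Mef2c against Sham Mef2c is given without them. Leaving out these libraries was an alternative added with the data in view. Calls in the other gene lists are given with all libraries only. Some libraries stood apart. The summed level of 12 interferon response genes was 170 to 759 CPM in Sham Gfp, 27.7 to 41.0 in Sham Mef2c, 30.7 to 404 in SNI Gfp and 26.8 to 40.6 in SNI Mef2c, with SNI Gfp libraries 4 (212) and 6 (404) above the rest of their group. Cortical neuron markers summed to 1693 CPM in SNI Mef2c library 1 and to 896 in SNI Gfp library 4, against 155 to 563 in the other 22. Index numbers in the labels follow the groups, and any preparation order behind them cannot be told apart from the groups.

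Promoters are shown first because these genes are known to share regulators. RefSeq promoter sequences (GRCm38.p6) matched 66 of the 87 member symbols, and each window of 300 bases (250 before the start of the gene and 50 after it) was searched on both strands. The NRF1 motif (GCGCA, any base, then GCGC) was in 17 of 66 (25.8%), against 5.19% of the 27025 genes in the table. The GABP motif CCGGAAG was in 16 (24.2%, against 9.93%), the YY1 motif AAGATGGCG in 7 (10.6%, against 1.64%) and the estrogen-related receptor (ERR) motif TNAAGGTCA in 3 (4.55%, against 1.43%). The MEF2 motif, searched by its consensus, was in 0 of 66, which allows up to 5.44% (exact 95% interval), against 3.70% of all genes, and no match says only that these letters are not in the window. Motifs can overlap and were counted apart. Of the 7 YY1 matches, 6 began 22 to 35 bases after the start. The 5 promoters below run from 250 bases before the start to 30 after it, 5′ to 3′ on the minus strand of each gene, with matches in capitals. Ndufv2, the 1 gene of the set that passed as higher in a comparison, is shown although it has no match. The others show some of the combinations found. Sdhd also has an ERR match from 36 bases after the start, beyond the stretch shown.
Ndufv2 (chr17:66101530-66101809): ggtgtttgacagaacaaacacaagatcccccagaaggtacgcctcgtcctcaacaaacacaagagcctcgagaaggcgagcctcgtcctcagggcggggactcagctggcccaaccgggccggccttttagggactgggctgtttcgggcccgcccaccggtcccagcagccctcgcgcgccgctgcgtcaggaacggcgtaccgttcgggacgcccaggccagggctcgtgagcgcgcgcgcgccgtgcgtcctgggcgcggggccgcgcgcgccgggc
Cox6a1 (chr5:115348929-115349208), NRF1 from 162 and from 117 bases before the start and GABP from 16 before: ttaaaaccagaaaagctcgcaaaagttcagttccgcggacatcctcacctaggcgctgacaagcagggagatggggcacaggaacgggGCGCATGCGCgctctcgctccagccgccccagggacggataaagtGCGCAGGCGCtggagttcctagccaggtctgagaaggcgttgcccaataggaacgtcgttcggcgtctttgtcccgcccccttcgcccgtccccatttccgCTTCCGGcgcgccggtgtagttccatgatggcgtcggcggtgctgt
Sdhd (chr9:50603820-50604099), NRF1 from 79 bases before and GABP from 46 before: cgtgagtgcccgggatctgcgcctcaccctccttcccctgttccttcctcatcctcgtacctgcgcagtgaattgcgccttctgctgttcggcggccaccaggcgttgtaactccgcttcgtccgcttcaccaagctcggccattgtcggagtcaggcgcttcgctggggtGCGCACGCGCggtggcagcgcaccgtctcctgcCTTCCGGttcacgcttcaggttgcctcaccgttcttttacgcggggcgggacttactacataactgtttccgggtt
Atp5g3 (chr2:73911297-73911576), ERR from 52 bases before and NRF1 from 12 after: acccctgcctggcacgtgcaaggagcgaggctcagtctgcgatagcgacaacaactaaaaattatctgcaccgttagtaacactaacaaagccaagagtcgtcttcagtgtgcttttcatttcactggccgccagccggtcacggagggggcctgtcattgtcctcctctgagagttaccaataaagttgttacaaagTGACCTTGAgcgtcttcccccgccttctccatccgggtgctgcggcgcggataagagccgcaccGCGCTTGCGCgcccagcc
Atp5j (chr16:84834947-84835226), YY1 from 88 bases before and GABP from 61 before: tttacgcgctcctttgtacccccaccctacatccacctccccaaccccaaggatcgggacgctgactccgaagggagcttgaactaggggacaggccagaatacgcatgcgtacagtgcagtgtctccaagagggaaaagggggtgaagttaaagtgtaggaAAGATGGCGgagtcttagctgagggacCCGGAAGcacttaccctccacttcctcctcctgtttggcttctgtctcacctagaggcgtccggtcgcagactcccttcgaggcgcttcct
The 18 matched genes with an NRF1 match had 0.080 as median log2 fold change in SNI Gfp against Sham Gfp and the 49 without had 0.076. In Sham Mef2c against Sham Gfp these medians were 0.044 and 0.043. They were -0.0018 and 0.0051 in SNI Mef2c against SNI Gfp and 0.013 and 0.041 in SNI Mef2c against Sham Mef2c. In the interaction they were -0.061 and -0.034. For GABP they were 0.043 (16 genes with a match) and 0.081 (51 without) in the first comparison and 0.0093 and 0.059 in the second. In the comparisons of SNI Mef2c with SNI Gfp and with Sham Mef2c the order was the other way, at 0.015 and -0.0041 and at 0.047 and 0.022. The GABP medians of the interaction were -0.0044 and -0.058. The symbol Atp5o names 2 gene IDs, both counted in these medians, which describe the genes and were not tested.

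Levels were compared between genes as CPM per kb of merged exons, averaged over the 24 libraries. If intron reads were counted, this scale sets genes with long introns too high, and that was not corrected. Cox7b2, for instance, has 542 exon bases in a span of 105382. The median of the 88 genes was 38.1. The highest levels were those of the catalytic core of the ATP synthase, Atp5a1 (189) and Atp5b (165), and of the small complex IV subunits Cox8a (220) and Cox6a1 (210). In complex I the range ran from 1.38 for the pseudogene Ndufa11b to 85.9 for Ndufa4, in complex II from 28.6 for Sdhc to 89.3 for Sdha, and in complex III from 35.5 for Uqcrq to 91.2 for Uqcr10. In complex IV the lowest was Cox7a1 with 1.22 and in complex V Atp5l with 3.81. A second gene ID called Atp5o spans 242585 bases over neighbouring genes and has 304 per kb of its short exons. Reads may have been counted over whole gene spans, so this value is not taken as the level of the subunit. It is left out of the plot of levels per length.

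**Figure D1:**
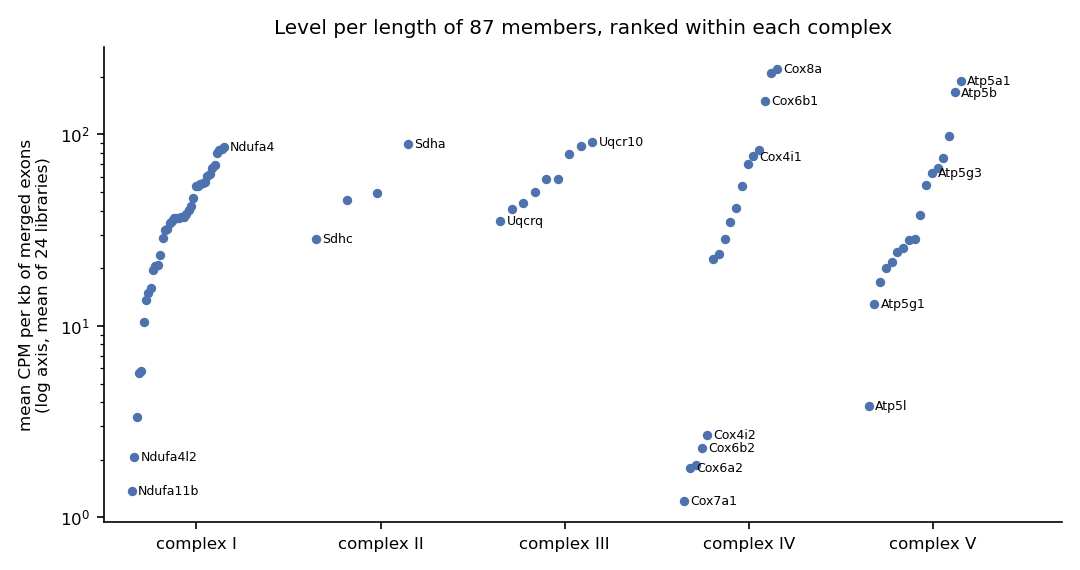
Mean level of 87 genes over 24 libraries in CPM per kb of merged exons (log axis), ranked within each complex. The lowest are tissue isoforms and paralogs, from Cox7a1 at 1.22, and the pseudogenes Ndufa11b and Ndufs6b, followed by the subunit gene Atp5l at 3.81. The high end holds Cox8a at 220, Cox6a1 at 210 and Atp5a1 at 189.

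Isoform pairs of complex IV were dominated by the common form. Cox4i1 stood at 76.7 CPM per kb and Cox4i2, the form known from lung and for its link to low oxygen, at 2.69, a ratio of 28.6. The ratio was 116 for Cox6a1 over Cox6a2, the heart and muscle form that is also known from interneurons, 64.7 for Cox6b1 over the testis form Cox6b2, 57.3 for Cox7a2 over the heart and muscle form Cox7a1 and 44.1 for Cox7b over Cox7b2. Ndufa4, now counted with complex IV by many authors, stood 41.6 times above its hypoxia-linked paralog Ndufa4l2. The 3 genes for subunit c of the ATP synthase, which encode the same mature protein, were closer: Atp5g3 had 62.9 CPM per kb, Atp5g2 20.01 and Atp5g1 13.04. Any intron reads would enter these ratios too, as for Cox7b2 with its long span. Ndufa4l2 and Cox6a2 overlap a gene with more counts (Shmt2 and Itgad), and their levels are uncertain. In all, 10 of the 88 genes overlap such a gene: besides these 2 they are Ndufa13, Ndufb11, Ndufb2, Ndufs6b, Cox4i1, Cox6c, Atp5d and the shorter Atp5o.

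The genes varied little between libraries. The SD of log2 CPM over the 24 libraries had a median of 0.091 over the 88 genes, and 0.087 with a maximum of 0.139 over the 79 protein-coding ones of at least 10 CPM. Among all 12147 tested genes of at least 10 CPM the median SD was 0.125. The 9 other members, at 0.586 to 5.50 CPM and between 7 and 231 counts per library, had a median SD of 0.295.

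Libraries shifted as a whole. The median deviation of the 88 genes from their mean over all libraries was between -0.150 and 0.088 in Sham Gfp (mean -0.050, SD 0.083, n = 6). It was between -0.030 and 0.043 in Sham Mef2c (mean -0.0018, SD 0.028), between -0.096 and 0.059 in SNI Gfp (mean 0.020, SD 0.059) and between -0.030 and 0.10 in SNI Mef2c (mean 0.033, SD 0.054). Sham Gfp was the widest group: 74 of the 88 genes were above their mean in its library 3 and 5 of 88 in its library 6. SNI Gfp library 6 had 9 of 88 above the mean, while the other 5 of that group had 57 to 74. In SNI Mef2c, libraries 5 and 6 had 78 and 82 above and libraries 2 and 3 had 22 each. Within Sham Gfp the high library 3 was also the one with the lowest interferon (170 CPM), T cell (19.1) and microglia (644) sums of its group. It had the lowest striatal projection neuron sum (2777, others 3532 to 5957) and the highest oligodendrocyte (3671, others 2151 to 3228) and interneuron (861, others 425 to 710) sums. SNI Gfp library 6, the low one, had 983 CPM of choroid plexus and ependyma markers, against 45.0 to 74.6 in the rest of its group and at most 137 in any other library. It also had the highest interferon (404) and microglia (747) and the lowest oligodendrocyte (2611) sums of its group. Its interneuron sum (505) was level with that of library 4 (506). The part of these cells in the shift was not tested.

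**Figure D2:**
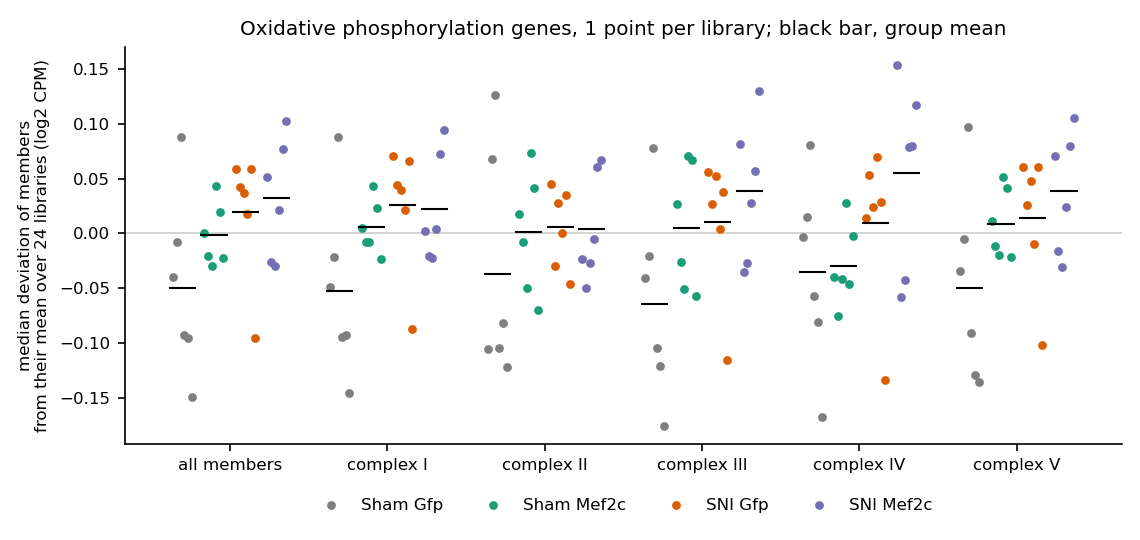
Median deviation in log2 CPM of all 88 genes and of each complex from their means over 24 libraries, 1 point per library, grouped by surgery and vector. Sham Gfp runs from -0.150 in library 6 to 0.088 in library 3, and SNI Gfp library 6 lies at -0.096 below the other 5 of its group.

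SNI was compared with sham under the Gfp vector, the contrast of nerve injury with the control virus. Most subunit genes of every complex had slightly higher means in SNI Gfp, but no gene passed. With edgeR's quasi-likelihood test, 0 of 88 genes passed an adjusted p of 0.05 in a comparison where 0% of the 23738 genes tested did. Unadjusted p was under 0.05 for 18 of 88 and for 12.3% of all genes, and DESeq2 called 0 of 88 (2.33% of all genes). The median log2 fold change was 0.075 over the members and 0.010 over all genes, and 80 of 88 were positive (90.9%), against 53.3% of all genes. By complex the positive ones were 38 of 40 in complex I (median 0.083), 4 of 4 in complex II (0.054), 9 of 9 in complex III (0.087), 12 of 17 in complex IV (0.061) and 17 of 18 in complex V (0.071). With no TMM scaling, library size alone gave 0.055 over the members and -0.010 over all genes. The limma-voom fit with quality weights called 27 of 88 (26 higher, 1 lower), against 11.8% of all genes. Leaving out Sham Gfp library 3 gave 6 calls, all higher (3.68% of all genes called), and leaving out SNI Gfp library 6 gave 3 (Ndufa4, Ndufa7 and Ndufs8; 5.83%). With SNI Gfp libraries 4 and 6 both left out (chosen with the data in view) 3 passed (Ndufv2, Ndufa4 and Ndufa7; 7.75%). The member median was 0.115 without Sham Gfp library 3. The libraries of the groups overlapped for all 88 genes, and did not for 0.303% of all genes. In the same comparison the 12 interferon genes were 0 of 12 positive (median -1.75), the microglia markers 0 of 7 (-0.35), the T cell markers 0 of 7 (-1.42) and the oligodendrocyte markers 8 of 8 (0.21). None of these markers passed, and unadjusted p was under 0.05 for all 12 interferon genes, 5 microglia, 1 T cell and 1 oligodendrocyte marker. Their part in the subunit values was not tested.

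The Mef2c vector was compared with Gfp in sham mice. Ndufv2, a core iron-sulfur subunit of complex I, was higher in Sham Mef2c and Cox6a2 was lower, and the other 86 genes did not pass. That is 2 of 88, where edgeR called 9.41% of all genes (1.48% higher, 7.93% lower). Unadjusted p was under 0.05 for 16 of 88 and for 21.2% of all genes. The median log2 fold change was 0.048 over the members and 0.019 over all genes, with 68 of 88 positive (77.3%, against 54.9%). Complex I held 36 of 40 positive (median 0.059), complex II 3 of 4 (0.033), complex III 6 of 9 (0.069), complex IV 10 of 17 (0.010) and complex V 13 of 18 (0.052). With library size alone, 55 of 88 were positive, the median was 0.021 and that of complex IV was -0.017, and the calls were 2 lower, Cox6a2 and Cox7a2l, and 0 higher (9.27% of all genes). Limma-voom called 16 (13 higher, 3 lower; 18.7% of all genes), and without Sham Gfp library 3 there were 14 (11 higher, 3 lower; 15.1%). DESeq2 called Ndufv2 and Ndufv3, both higher (10.9%). Without SNI Gfp libraries 4 and 6, which share in the estimate of the spread, Cox4i2 passed too as lower (10% of all genes). Without Sham Mef2c libraries 2 and 5, those with no rise of Mef2c, edgeR called 0 of 88 (6.88% of all genes), and the member median was 0.053 with 70 of 88 positive. It was 0.087 without Sham Gfp library 3. Ndufa7 was the 1 member whose groups did not overlap, which held for 5.97% of all genes. In this comparison 12 of 12 interferon genes, 6 of 7 T cell markers and 5 of 7 microglia markers fell. T cell markers summed to 19.1 to 62.6 CPM in Sham Gfp and 8.77 to 28.2 in Sham Mef2c, where Cd8a and Gzmb were at 0, and microglia markers to 644 to 897 and 411 to 918. The part of these cells in the subunit values was not tested. Sham Gfp enters both this comparison and the one before it, so the 2 are not independent.

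The Mef2c vector was compared with Gfp after SNI. Here the levels of the subunit genes lay close together: 0 of 88 passed with edgeR, where 0.00421% of all genes did, and DESeq2 and limma-voom called 0 of 88 (1.85% and 0.0548% of all genes). Unadjusted p was under 0.05 for 3 of 88, Ndufb4, Ndufs3 and Atp5g1, and for 14.3% of all genes. The median log2 fold change was 0.0043 over the members and -0.00044 over all genes. It had no stable sign, being positive in 17 and negative in 18 of 35 other settings, between -0.037 and 0.019. Complex I had 15 of 40 positive (median -0.013), complex II 1 of 4 (-0.019), complex III 5 of 9 (0.016), complex IV 11 of 17 (0.026) and complex V 15 of 18 (0.022). For all 88 genes the libraries of the groups overlapped, and did did not for 0.556% of all genes.
SNI was compared with sham under the Mef2c vector. Complex IV genes had the higher means in SNI Mef2c, but again no gene passed: edgeR called 0 of 88 and 0% of all genes, while unadjusted p was under 0.05 for 14 of 88 and for 16.1% of all genes. DESeq2 and limma-voom also called 0 of 88 (0.0548% and 0% of all genes). The median over the members was 0.034 and over all genes -0.0019, with 60 of 88 positive (68.2%, against 49.4%). With library size alone it came to -8.6e-05, with 44 of 88 positive, and to -0.035 over all genes. The complexes differed in their medians: -0.0023 in complex I (19 of 40 positive), 0.0073 in complex II (3 of 4), 0.034 in complex III (7 of 9), 0.087 in complex IV (16 of 17) and 0.043 in complex V (15 of 18). All 11 complex IV genes of at least 10 CPM were positive, between 0.05 and 0.16. The complex IV median stayed positive in 35 of 35 other settings, between 0.051 with library size alone and 0.10. It was 0.058 without SNI Mef2c library 1, the library with the highest cortical markers, in which complex IV deviated by 0.154 and complex I by 0.0025. With cortical markers as a covariate it was 0.063, with 14 of 17 positive. Without Sham Mef2c libraries 2 and 5 the complex IV median was 0.072 and the member median 0.032, and edgeR called 0 of 88. In the same comparison the cortical neuron markers were 10 of 10 positive (median 1.83), the striatal projection neuron markers 12 of 12 (0.40) and the oligodendrocyte markers 0 of 8 (-0.13). None of these passed, with unadjusted p under 0.05 for 4 cortical markers. Beyond the covariate, their part in the complex IV values was not tested. Cox6a2 and Atp5g1 did not overlap between the groups, which held for 1.1% of all genes.

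The interaction asks whether the SNI difference with Mef2c differs from that with Gfp. It was called for 0 of 88 by edgeR, where 0% of all genes passed, and unadjusted p was under 0.05 for 7 of 88 and for 14.9% of all genes. DESeq2 called 0 of 88 (0.00421% of all genes). The member median was -0.036, against 0.0031 over all genes, and 26 of 88 were positive (29.5%, against 50.6%). Complex I had 7 of 40 positive (median -0.074), complex II 0 of 4 (-0.021), complex III 3 of 9 (-0.035), complex IV 10 of 17 (0.028) and complex V 6 of 18 (-0.018). Limma-voom called 12 of 88 (4 higher, 8 lower; 17.4% of all genes) and put the member median at -0.095 and the complex IV median at -0.048. With edgeR the member median was -0.094 without Sham Gfp library 3 and -0.022 without SNI Mef2c library 2, and negative in all 35 other settings. The complex IV median was negative in 7 of 34, with -0.023 without Sham Gfp library 3 and -0.018 without SNI Gfp library 6. Without Sham Mef2c libraries 2 and 5, edgeR called 0 of 88, and the member median was -0.040. Without SNI Gfp libraries 4 and 6, edgeR called 1, Ndufv2 as lower (6.19% of all genes).

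**Figure D3:**
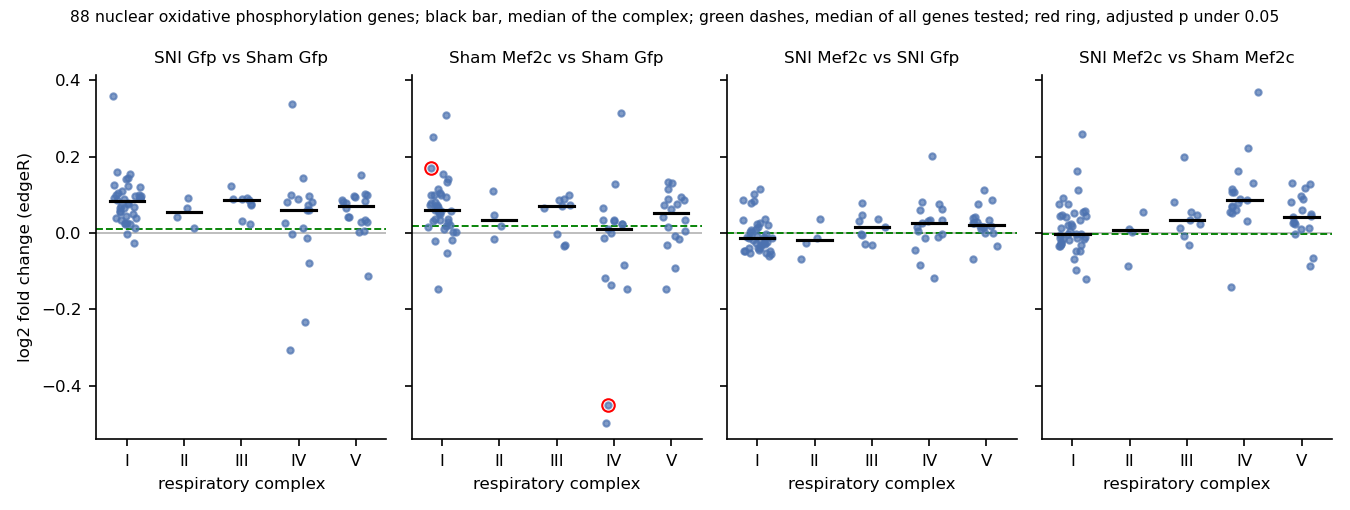
Log2 fold change of the 88 genes in 4 comparisons, 1 point per gene, by complex, with the median of each complex as a black bar, the median of all genes tested as green dashes and genes with an adjusted p under 0.05 ringed in red. Complex I sits at a median of 0.083 in SNI Gfp against Sham Gfp and complex IV at 0.087 in SNI Mef2c against Sham Mef2c, and the only rings are Ndufv2 and Cox6a2 in Sham Mef2c against Sham Gfp.

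Complex I held the called gene Ndufv2 (chr17:66078638-66101559, minus strand, mm10), which carries an iron-sulfur cluster next to the NADH site. Its level was 103 to 128 CPM in Sham Gfp (median 110), 122 to 135 in Sham Mef2c (median 125), 111 to 135 in SNI Gfp (median 127) and 114 to 130 in SNI Mef2c (median 120). All 6 Sham Mef2c libraries were above 5 of the 6 Sham Gfp libraries, and Sham Gfp library 3 with 128 reached into their range. The mean went from 112 (SD 9.64, n = 6) to 127 (SD 4.89, n = 6), 0.17 on the log2 scale (SE 0.05, edgeR adjusted p = 0.0477). The call was lost in 24 of 35 other settings, with edgeR, DESeq2 or limma-voom adjusted p from 0.0021 to 0.138, and the direction was kept in all 35. Without Sham Mef2c libraries 2 and 5 the difference was 0.17 (edgeR adjusted p = 0.138). In SNI Gfp against Sham Gfp the difference was 0.14 (SE 0.05, edgeR adjusted p = 0.233), and the interaction was -0.21 (SE 0.08, edgeR adjusted p = 0.313).

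Ndufa4 and Ndufa7 had the smallest p-values of complex I in SNI Gfp against Sham Gfp. Ndufa4 (chr6:11900292-11907497) was at 101 to 126 CPM in Sham Gfp (median 108), 115 to 122 in Sham Mef2c (118), 108 to 129 in SNI Gfp (123) and 118 to 133 in SNI Mef2c (124). In SNI Gfp 5 of 6 libraries were at 122 or more and library 6 at 108, while in Sham Gfp library 3 with 126 was the only one above 111. The difference was 0.14 (SE 0.05, edgeR adjusted p = 0.152). Ndufa7, an accessory subunit (chr17:33824572-33838317), had 46.4 to 51.9 CPM in Sham Gfp and 51.9 to 55.8 in Sham Mef2c, with the highest of the first group just under the lowest of the second, yet its difference of 0.10 (SE 0.04) did not pass (edgeR adjusted p = 0.118). Its SNI difference with Gfp was 0.11 (SE 0.04, edgeR adjusted p = 0.161). Ndufs8, a core iron-sulfur subunit, had 0.12 in the SNI comparison (edgeR adjusted p = 0.217), and Ndufv3, an accessory subunit beside the NADH site, had 0.10 with the Mef2c vector in sham mice (edgeR adjusted p = 0.0789).

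Ndufa1 and Ndufs3 had lower medians in Sham Mef2c than in Sham Gfp. Ndufa1, a small X-linked subunit needed for assembly of the membrane arm (chrX:37187588-37191163), lay between 27.4 and 30.3 CPM in Sham Gfp (median 29.1) and between 24.5 and 29.8 in Sham Mef2c (25.7). In SNI Gfp it was 27.0 to 33.5 (28.4) and in SNI Mef2c 28.0 to 36.2 (31.2). Of the Sham Mef2c libraries 5 of 6 were at 26.2 or less, and library 3 with 29.8 was within the other groups. Its difference of 0.26 in SNI Mef2c against Sham Mef2c (SE 0.06) had the smallest p of any member there, unadjusted 0.00049, and did not pass (edgeR adjusted p = 0.223). Ndufs3, a core subunit of the arm that reaches into the matrix, had 70.5 to 85.6 CPM in Sham Mef2c and 80.2 to 91.0 in SNI Mef2c, 0.16 higher (SE 0.05, edgeR adjusted p = 0.223). Its libraries overlapped through Sham Mef2c library 3 (85.6). Ndufb4 and Ndufs4 had 0.10 and 0.08 in SNI Mef2c against SNI Gfp, and neither passed (edgeR adjusted p = 0.257 and 0.388).

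Complex II, succinate dehydrogenase, is the 1 complex encoded wholly in the nucleus. Sdha, its flavoprotein, had mean levels of 354 CPM in Sham Gfp (SD 42.1), 382 in Sham Mef2c (SD 28.8), 377 in SNI Gfp (SD 36.9) and 360 in SNI Mef2c (SD 12.6). The iron-sulfur subunit Sdhb stood at 101 (SD 5.51), 100 (SD 3.0), 102 (SD 3.52) and 100 CPM (SD 3.62) in the same order. It had the smallest spread of the 88 genes, an SD of 0.055 on the log2 CPM scale over all libraries. The membrane anchors Sdhc (89.5 to 96.0 CPM by group mean) and Sdhd (59.8 to 61.6) had an SD of 0.069 and 0.070 on that scale. None of the 4 passed in any comparison with edgeR or DESeq2, while limma-voom called Sdha as higher in SNI Gfp and in Sham Mef2c against Sham Gfp and as lower in the interaction.

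Complex III had no gene that passed with edgeR or DESeq2. Limma-voom called Uqcrc1, Uqcrfs1, Uqcrb and Uqcrc2 as higher in SNI Gfp against Sham Gfp, Uqcrb and Uqcrc2 as higher in Sham Mef2c against Sham Gfp and Uqcrb as lower in the interaction. Without Sham Gfp library 3 edgeR called Uqcrc2 as higher in Sham Mef2c. Uqcrc1, a core protein facing the matrix, had 159 CPM in Sham Gfp (SD 16.6) and 173 in SNI Gfp (SD 12.1), a log2 difference of 0.12 that did not pass (edgeR adjusted p = 0.418). Uqcr11, a small accessory subunit (chr10:80402997-80406830), had 48.0 to 56.4 CPM in Sham Gfp (median 53.4), 49.0 to 54.5 in Sham Mef2c (52.6), 53.1 to 63.1 in SNI Gfp (54.1) and 54.2 to 64.4 in SNI Mef2c (60.0). In SNI Mef2c 5 of 6 libraries were above the highest Sham Mef2c library and library 2 was just under it. The difference was 0.20 (SE 0.05, edgeR adjusted p = 0.223). Cyc1, cytochrome c1, had group means between 102 and 111 CPM, and Uqcr10 between 51.6 and 54.6.

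Complex IV held the second called gene. Cox6a2 (chr7:128205435-128206387, minus strand, mm10) was low everywhere, with 0.967 to 1.72 CPM in Sham Gfp (median 1.37), 0.867 to 1.12 in Sham Mef2c (0.977), 1.13 to 1.66 in SNI Gfp (1.20) and 1.14 to 1.47 in SNI Mef2c (1.26). Sham Gfp libraries 3 and 6 lay in the range of Sham Mef2c and the other 4 above it, and every library of both SNI groups was above every Sham Mef2c library. The mean was 1.36 (SD 0.309, n = 6) in Sham Gfp and 0.995 (SD 0.0993, n = 6) in Sham Mef2c, -0.45 on the log2 scale (SE 0.14, edgeR adjusted p = 0.0368). In 13 of 35 other settings the call was lost, with edgeR, DESeq2 or limma-voom adjusted p from 0.0071 to 0.189 and no change of direction. Without Sham Mef2c libraries 2 and 5 it was -0.37 (edgeR adjusted p = 0.189), and 7 of these settings left out 1 library (Sham Gfp 1, 2 or 5 or Sham Mef2c 1, 2, 4 or 5). Counts were 27 to 61 per library, and the gene lies within Itgad, an integrin gene of leukocytes with 1.70 to 2.88 CPM and a difference of -0.28 (SE 0.12, edgeR adjusted p = 0.180), so reads of both cannot be told apart. In SNI Mef2c against Sham Mef2c Cox6a2 had 0.37 (SE 0.14, edgeR adjusted p = 0.229).

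Other complex IV isoforms showed wide overlap. Cox4i2 (chr2:152754173-152765037) had 1.63 to 3.17 CPM in Sham Gfp (median 2.81) and 1.41 to 2.33 in Sham Mef2c (1.76), a difference of -0.50 (SE 0.18, edgeR adjusted p = 0.0922). In Sham Gfp 4 libraries were above all of Sham Mef2c and libraries 3 and 6 were among them. SNI Gfp had 1.42 to 2.97 and SNI Mef2c 1.71 to 2.11 CPM. It passed as lower under limma-voom, and also without Sham Gfp library 3 and without SNI Gfp libraries 4 and 6. The common form Cox4i1 had means of 115 CPM (SD 8.30), 117 (SD 3.66), 119 (SD 6.92) and 125 (SD 9.20) in Sham Gfp, Sham Mef2c, SNI Gfp, then SNI Mef2c. Cox6a1 had 141, 143, 150 and 154 in the same order, and in SNI Mef2c it was highest in library 1 (180). Cox8a, a small common subunit (chr19:7215153-7217616), was at 118 to 142 CPM in Sham Gfp, 126 to 136 in Sham Mef2c, 122 to 153 in SNI Gfp and 131 to 166 in SNI Mef2c, again highest in SNI Mef2c library 1. Its SNI difference with Mef2c was 0.16 (SE 0.06, edgeR adjusted p = 0.226). Cox7a2l, a factor that joins complexes III and IV into supercomplexes, was 52.5 CPM (SD 2.94) in Sham Gfp and 49.5 (SD 1.38) in Sham Mef2c, -0.08 (SE 0.04, edgeR adjusted p = 0.176). The muscle form Cox7a1 had 0.599 to 0.727 CPM by group mean and Cox7b2 0.886 to 1.13, and neither passed in any comparison.

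In complex V no gene passed with edgeR or DESeq2. Limma-voom called Atp5g1, Atp5g3, Atp5h, Atp5a1, Atp5d and 1 of the Atp5o gene IDs as higher in SNI Gfp against Sham Gfp. In Sham Mef2c against Sham Gfp it called Atp5g1, Atp5g3 and both Atp5o gene IDs as higher and Atp5g2 as lower. In the interaction it called Atp5g2 as higher and 1 of the Atp5o gene IDs as lower. Which ID these single Atp5o calls belong to is not shown, and the longer ID is not taken as the level of the subunit. Without Sham Gfp library 3 edgeR called Atp5g1 in the first of these comparisons, and Atp5g1, both Atp5o and Atp5g2 in the second, in the same directions. Atp5g1, 1 of the 3 genes of subunit c (chr11:96068852-96075670), had 50.3 to 65.2 CPM in Sham Gfp (median 57.4), 60.8 to 65.6 in Sham Mef2c (63.9), 61.7 to 67.2 in SNI Gfp (64.6) and 66.2 to 75.6 in SNI Mef2c (68.1). The lowest SNI Mef2c library was above the highest Sham Mef2c library, and Sham Gfp libraries 1 and 3 (62.9 and 65.2) were in the range of Sham Mef2c. The differences were 0.15 for SNI with Gfp, 0.13 for Mef2c in sham mice, 0.11 for Mef2c after SNI and 0.13 for SNI with Mef2c (SE 0.05 each, edgeR adjusted p = 0.154, 0.112, 0.315 and 0.230). Its paralog Atp5g2 was ordered otherwise, with 31.4 to 38.0 CPM in Sham Gfp (median 35.7), 28.8 to 34.9 in Sham Mef2c (31.9), 28.6 to 35.8 in SNI Gfp (32.8) and 31.5 to 36.5 in SNI Mef2c (35.1). The Mef2c difference in sham mice was -0.15 (SE 0.05, edgeR adjusted p = 0.108) and the interaction 0.23 (SE 0.08, edgeR adjusted p = 0.313). Atp5g3, the most abundant of the 3 per length, had means of 131, 139, 138 and 141 CPM in Sham Gfp, Sham Mef2c, SNI Gfp, then SNI Mef2c. The catalytic subunit Atp5b had 663 CPM (SD 68.7) in Sham Gfp, 707 (SD 38.5) in Sham Mef2c, 707 (SD 40.1) in SNI Gfp and 728 (SD 45.7) in SNI Mef2c, and passed in no comparison with edgeR.

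**Figure D4:**
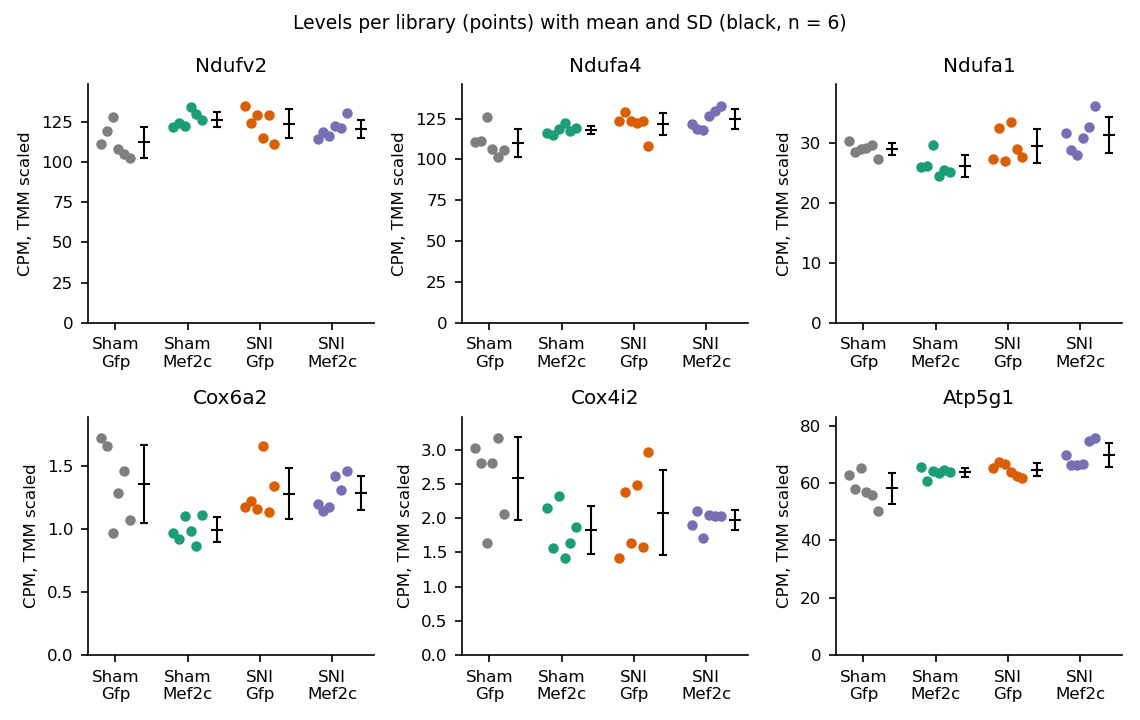
CPM per library of Ndufv2, Ndufa4, Ndufa1, Cox6a2, Cox4i2 and Atp5g1 in 4 groups of 6 libraries, with the mean and SD of each group. The mean of Ndufv2 goes from 112 in Sham Gfp to 127 in Sham Mef2c and that of Cox6a2 from 1.36 to 0.995.

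Medians differed with the length of the transcripts. Over the 30 members with the shortest transcripts (231 to 765 bases) the median in Sham Mef2c against Sham Gfp was 0.010, over the 28 of 782 to 1410 bases it was 0.050 and over the 30 longest (1445 to 6310 bases) 0.069. For SNI with Gfp the medians were 0.053, 0.087 and 0.080, and for SNI with Mef2c 0.061, 0.022 and 0.039. The interaction had 0.0095, -0.066 and -0.049. The part of transcript length in these values was not tested. The 78 members that overlap no gene with more counts had medians of 0.075 and 0.048 in the comparisons with Sham Gfp, the same as all 88. Some of these 78 overlap a gene with fewer counts, Ndufs3 (Kbtbd4) and Uqcrc2 (Pdzd9) among them.

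Subunits encoded in mitochondria were read beside their nuclear partners. In Sham Mef2c against Sham Gfp, 5 of 13 rose and 0 fell, where edgeR called 1.48% of all genes higher and 7.93% lower, and their median was 0.21. They were mt-Atp8 (9.19 to 12.1 CPM, log2 fold change 0.39, SE 0.09, edgeR adjusted p = 0.0066), mt-Co3 (32.0 to 39.1 CPM), mt-Co2 (48.3 to 58.5), mt-Nd4l (7.55 to 9.05) and mt-Atp6 (34.5 to 42.6). The 13 genes summed to 11072 to 15061 CPM in Sham Gfp libraries, so the 5 called hold a small part of the mitochondrial reads. All 13 had positive values in each of the 4 comparisons of groups, with medians of 0.13 for SNI with Gfp, 0.19 for Mef2c after SNI and 0.14 for SNI with Mef2c, where none passed. Libraries selected for polyadenylated RNA count mitochondrial transcripts unevenly, and reads shared with nuclear copies make single mitochondrial genes uncertain.

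Among 47 assembly factors of the complexes 1 rose in Sham Mef2c against Sham Gfp, Sdhaf3, which helps to mature the iron-sulfur subunit of complex II (13.6 to 17.5 CPM, log2 fold change 0.36, SE 0.10, edgeR adjusted p = 0.0217). That is 2.13% of the list, near the 1.48% of all genes. Their median was 0.033 there and 0.022 for SNI with Gfp. Of 19 transcriptional regulators of mitochondrial genes none passed, and their medians were -0.0087 and 0.00071. Ppargc1a, the coactivator PGC-1alpha, had 58.2 CPM (SD 16.9) in Sham Gfp, 65.8 (SD 9.99) in Sham Mef2c, 65.0 (SD 12.2) in SNI Gfp and 64.6 (SD 8.88) in SNI Mef2c. Enzymes of the TCA cycle, which feeds NADH and succinate to the chain, had medians of 0.095 for Mef2c in sham mice and 0.094 for SNI with Gfp, with 12 of 13 positive in each. Suclg2, the GTP-forming subunit of succinyl-CoA ligase, was the 1 that passed, and fell from 16.1 to 13.9 CPM (-0.21, SE 0.06, edgeR adjusted p = 0.0321), 1 of 13 enzymes (7.69%) where 7.93% of all genes fell.

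Of 18 gene IDs of glycolysis 1 fell (5.56%, against 7.93% of all genes) and 0 rose in Sham Mef2c against Sham Gfp. It was Hk2, the inducible hexokinase, at 15.2 CPM in Sham Gfp and 3.70 in Sham Mef2c (-2.03, SE 0.31, edgeR adjusted p = 0.00016), while the list median was 0.060. None of 10 genes for cytochrome c, carriers and porins passed (medians 0.090 for Mef2c in sham mice and 0.078 for SNI with Gfp), nor did any of the 10 tested mitochondrial antioxidant genes (0.052 and 0.036). In the other 4 comparisons edgeR called no gene of these 7 lists. Whether the calls in these lists hold without the Sham Mef2c libraries that showed no rise of Mef2c is not shown.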

How the data were processed

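Per the labels, TRIzol and chloroform gave RNA from bilateral 14G accumbens punches, and an Illumina stranded mRNA kit the libraries. The authors deposited raw counts per gene, made with featureCounts on mm10 per the submitters' processing notes, and FPKM, which the authors derived from them. The sources used here do not name the aligner, annotation or counting options. Of the deposited FPKM values above 0, 100% equalled count over library total and gene span within 1e-06, so reads had been counted over whole spans, introns included, and genes overlapping a larger gene are uncertain. FPKM were not used further. Of 60 pairs of libraries within groups none was a copy (lowest chi-square per degree of freedom 3.22). The tables held 0 columns of other samples.

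Counts were tested with edgeR 4.0.16 in R 4.3.3 (filterByExpr, TMM, robust quasi-likelihood, 1 coefficient per group, 20 residual degrees of freedom), two-sided, with Benjamini-Hochberg adjustment over 23738 genes and a threshold of 0.05. Fold changes are log2 values, positive where the first group named is higher, and log2 CPM used a prior count of 2. Single values were compared by exact permutation tests. Alternatives were RLE scaling, library size alone, other count filters, DESeq2 1.42.0, voom with quality weights in limma 3.58.1, a replicate block, a fit of only the groups compared, a cortical marker covariate and each library left out. The model was tested on simulated data. Members and gene lists were chosen with earlier results of these data known, so lists are described by counts and medians without a test, and no pattern is independent of that choice.

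Genes named are those past the threshold or, where fewer than 3 passed, the 5 smallest p-values of each comparison, the isoforms and their common partners, the Sdh genes, the extremes per length in each complex and up to 4 genes per pathway list. Uqcrc1, Cyc1, Atp5b, Atp5a1 and Ppargc1a, where named outside this rule, were chosen after their values were seen. Exon lengths came from GENCODE M21, and promoters from RefSeq for GRCm38.p6.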

Additional observations from a re-analysis of the deposited data

Results flagged for a closer look

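Of 172 groups of 6 libraries examined over 37 named genes and the medians of the complexes, 16 had a library far from the other 5, by a gap to its nearest neighbour above 0.625 of the range of the group. Chance gives about 1 in 20. Most of the 16 were in 1 library. SNI Gfp library 6 was the lowest of its group for Cox4i1 (106.0 CPM), Cox6b1 (96.0), Cox6c (91.8), Ndufa4 (108), Uqcr10 (48.2) and Uqcrq (58.5), each at 87.8% to 91.1% of the next library. The median deviation on the log2 CPM scale was also lowest there for all members (-0.096) and for complexes I (-0.087), III (-0.116) and IV (-0.134). Choroid plexus and ependyma markers summed to 983 CPM in this library, against 45.0 to 74.6 in the rest of its group, and Cox8b, under the count minimum, reached 46 counts there and at least 10 in no other library. It also had the highest interferon and microglia sums of its group, 404 and 747 CPM, and the lowest oligodendrocyte sum (2611). Its interneuron sum (505) was level with that of library 4 (506). The part of these cells in the values was not tested.

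The other cases were spread over groups. Cox6b2, the testis isoform, was lowest in Sham Mef2c library 3 (2.15 CPM), and the supercomplex factor Cox7a2l was lowest in Sham Gfp library 6 (46.7) and in SNI Mef2c library 2 (48.8). Ndufb4, a complex I accessory subunit, was lowest in SNI Gfp library 1 (25.9). Cox7a2 was highest in Sham Mef2c library 4 (67.8) and Ndufa1 in Sham Mef2c library 3 (29.8).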

How the results depend on the processing

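In SNI Gfp against Sham Gfp, the number of members called was 27 with limma-voom, 3 without SNI Gfp libraries 4 and 6 (chosen after seeing the data) and 0 to 6 with 1 library left out. In Sham Mef2c against Sham Gfp it was 16 with limma-voom, 3 without SNI Gfp libraries 4 and 6, and 1 with at least 1 CPM in 6 libraries or among members of at least 10 CPM (the latter chosen after seeing the data). It was 0 without Sham Mef2c libraries 2 and 5 (also chosen after seeing the data), with no count filter, with the compared groups alone, with a cortical covariate and with the replicate block, and 0 to 14 with 1 library left out. The interaction had 12 with limma-voom and 1 without SNI Gfp libraries 4 and 6. In both comparisons with SNI Mef2c it was 0 in all 36 alternatives. Member medians also moved, by amounts that were not small beside the medians themselves. They ran from 0.055 to 0.119 for SNI with Gfp (0.075 above) and from 0.021 to 0.087 for Mef2c in sham mice (0.048). For Mef2c after SNI the range was -0.037 to 0.019 (0.0043) and for SNI with Mef2c -8.6e-05 to 0.046 (0.034). The interaction ran from -0.095 to -0.022 (-0.036). The pooled SD of 0.059 within groups is the spread of single libraries and not the error of these differences. The median level per kb was 56.3 when divided by the longest transcript, and in the 100 bases before the start alone GABP was in 13.6% and YY1 in 1.52% of member promoters. The cause of these shifts was not tested, except that the shorter window holds fewer bases. Libraries with the same replicate number share only that number: over 36 pairs the correlations of their deviations were -0.43 to 0.28, 9 above 0.1, and 1 of 24 libraries correlated best with its own number. The replicate block called 0 members in every comparison. Among 9 low members the counts, 7 to 231 per library, limit what can be seen.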
